A study of Nicotiana benthamiana with 12 samples.

Results

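The genes described here are the 32 of the 40763 genes in the deposited table of Nicotiana benthamiana whose annotation text names HtpG, HSP90, a heat shock protein of that size class or endoplasmin, leaving out texts of activators, organising, binding or interacting proteins and co-chaperones. The rule used the annotation text and no measured value. Leaves of 5-week-old plants grown in soil were sampled after 1 h at 37 °C (heat) or after being left at 23 °C (mock). Each treatment was sequenced as total RNA and as the RNA found on polysomes (ribosomes strung along a transcript), which gave 4 groups of 3 libraries: heat total RNA, mock total RNA, heat polysome RNA and mock polysome RNA. The labels name no transgene, mutant or cultivar, and they do not say how many plants or leaves went into a library. Nothing in them ties a polysome library to a total RNA library of the same leaves, so p-values measure the spread between these libraries.

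HSP90 proteins are chaperones that close and open around a client protein as their N-terminal domain binds and splits ATP, and they act late in folding, on kinases, receptors and other signalling proteins that are already partly folded. Bacteria carry the form named HtpG. Plants carry relatives in the cytosol, in plastids, in mitochondria and in the lumen of the endoplasmic reticulum (ER), where the protein is called endoplasmin. Cytosolic HSP90 also holds heat stress transcription factors inactive in unstressed plant cells, and together with the co-chaperones SGT1 and RAR1 it is known for the stability of plant immune receptors, much of that work having been done in N. benthamiana.

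The annotation text divides the 32 genes into 5 sets. The best database hit of 11 genes, all with the text HtpG, is a bacterial HtpG protein, and this text gives no compartment in the plant cell. Another 6 genes carry an HtpG family text with the Arabidopsis protein AT2G04030.1 as best hit, which is the chloroplast HSP90 of that plant. A further 5 have AT4G24190.1, the ER-resident HSP90 of Arabidopsis known as SHEPHERD, and 1 gene has the text of an endoplasmin homolog with a barley protein as best hit. The last 9 genes have the text of an ATPase family that shares the HSP90-type ATP-binding fold, and their best hits are Arabidopsis MORC proteins, which act in gene silencing and chromatin compaction and are not known as folding chaperones. The InterPro entry of the Hsp90 family is given for 21 of the 32 genes and for 0 genes outside them, whereas 7 of the 9 ATPase texts carry the broader entry of histidine kinase-like ATPases. No member has a text of the form heat shock protein followed by its size, so the name HSP90 rests on the HtpG and endoplasmin texts and on that InterPro entry. The split of the HtpG texts by best hit was made after the table had been seen. Many members share 1 text, and N. benthamiana is an allotetraploid with near-identical gene copies, so reads could be divided among copies, and values of single genes are less certain than those of a set. The IDs Niben101Scf00837g10012.1 and Niben101Scf00837g11004.1 lie on 1 scaffold, as do Niben101Scf08936g05006.1 and Niben101Scf08936g05015.1.

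Total counts were 10724854 to 14485118 per library, with a lowest deposited count of 1 in every library. The depth left for most genes was lower in polysome RNA, where 3827 to 4264 genes stood at the lowest count after heat and 2737 to 3791 in mock leaves, against 2107 to 2263 in heat total RNA and 1200 to 1598 in mock total RNA. Levels below are CPM, counts relative to library size with TMM scaling, not corrected for gene length, so levels are compared between samples and not between genes. Of the 32 genes, 31 had enough counts to be tested among 34325 genes, and the ATPase text gene Niben101Scf02207g04009.1 had not, with 1 to 12 counts per library. The leaf label was borne out by transcripts of light harvesting: 77 genes with a chlorophyll a-b binding text summed to at least 71697 CPM in every library. The texts of flower and meristem genes, 19 in all, summed to 431 to 462 CPM in heat total RNA, 189 to 224 CPM in mock total RNA, 675 to 778 CPM in heat polysome RNA and 239.9 to 301 CPM in mock polysome RNA. Transcripts with a Rubisco large chain text summed to 42.6 to 49.7 CPM in heat total RNA, against 169 CPM in mock total library 5 and 3228 and 4329 CPM in mock total libraries 6 and 7, which so stood apart. The part of these differences in the results below was not tested, except that results were also computed without mock total libraries 6 and 7. In bulk leaf RNA, fewer cells of a type and less RNA per cell cannot be told apart.

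Transcripts of the family were far more abundant after heat in both fractions. Summed over all 32 genes, heat total RNA held 8915, 9040.4 and 9177 CPM, against 587, 574 and 491 CPM in mock total RNA. The same sum was 8225, 8181 and 7870.2 CPM in heat polysome RNA, against 444, 515 and 471 CPM in mock polysome RNA. Every heat library was thus far above every mock library, and the ratio of group means was 16.4 in total RNA and 16.97 in polysome RNA. As a plain share of all counts, the family took 1.12 ± 0.032% in heat total RNA and 0.0784 ± 0.0060% in mock total RNA, and 0.516 ± 0.047% in heat polysome RNA and 0.0422 ± 0.0047% in mock polysome RNA (mean ± SD, n = 3). Of the 31 tested genes, 23 rose in total RNA, 1 fell and 7 did not pass an adjusted p of 0.05 in edgeR's quasi-likelihood test. Among all genes tested, 25.7% rose and 28.3% fell in that comparison. The median log2 fold change of the 31 genes was 3.36, against -0.08 over all genes. In polysome RNA 18 members rose, 5 fell and 8 did not pass, against 28.1% of all genes that rose and 28.0% that fell, and the median was 2.98, against -0.06 over all genes. The sets did not share this pattern equally: 20 of the 22 HtpG text genes rose in total RNA and 18 in polysome RNA, while the ATPase and endoplasmin texts gave 3 of 9 tested genes that rose in total RNA and 5 of 9 that fell in polysome RNA.

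**Figure D1:**
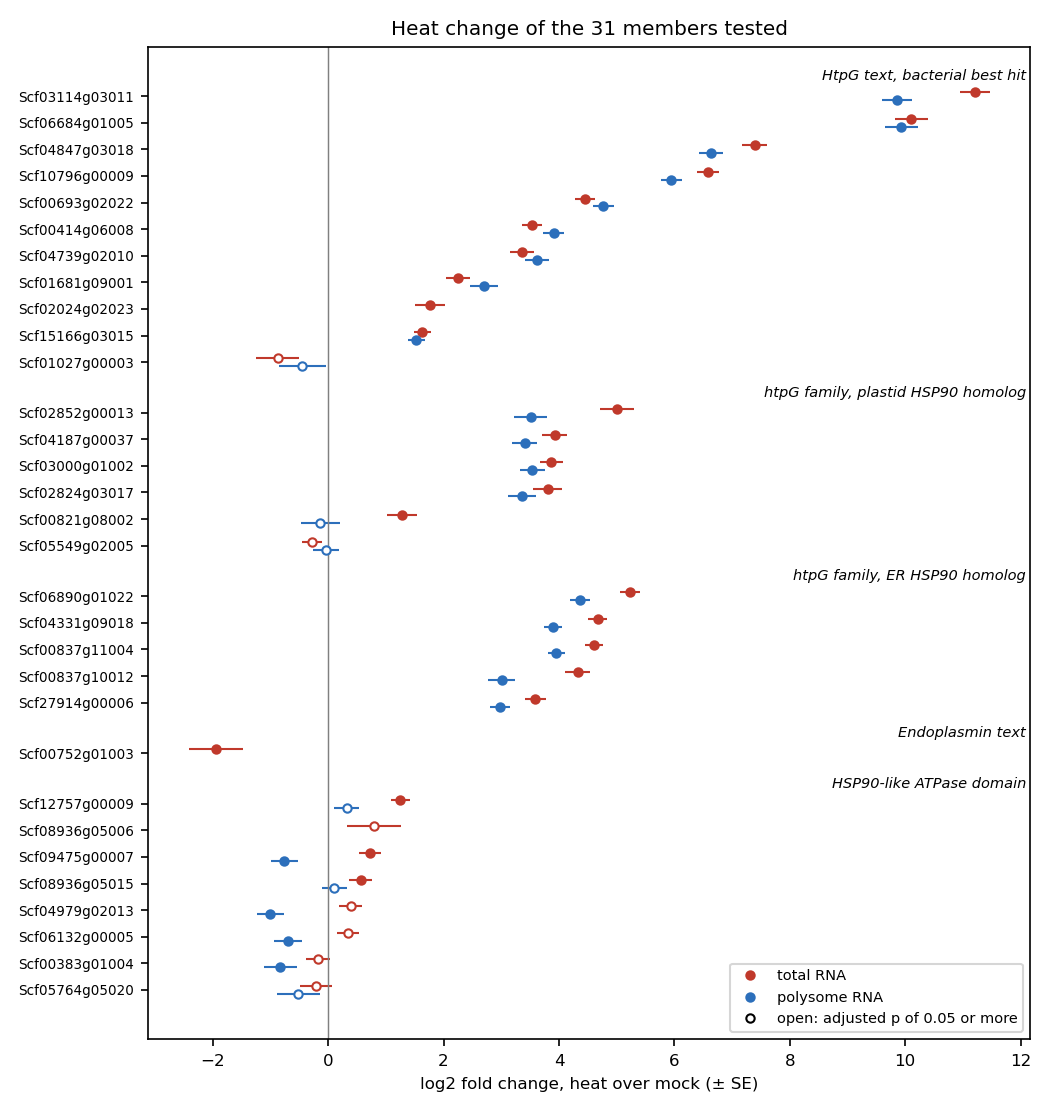
Log2 fold change of heat over mock (± SE, x axis) in both RNA fractions for the 31 tested genes, grouped by annotation set (y axis), with open points for an adjusted p of 0.05 or more. Polysome values are left out for Scf02024g02023, Scf08936g05006 and Scf00752g01003, which had at most 3 reads above the lowest count in a group, and the values of Scf03114g03011 rest on 2 such reads in each mock group. The HtpG text genes lie mostly to the right of 0, up to 11.22, and the ATPase text genes lie around 0.

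Among the 11 HtpG genes with a bacterial best hit, 10 rose in total RNA and 9 in polysome RNA. Their summed level was 6299 ± 62.9 CPM in heat total RNA and 343 ± 48.8 CPM in mock total RNA, a ratio of 18.4, and 6109.7 ± 429.8 CPM in heat polysome RNA and 294 ± 17.6 CPM in mock polysome RNA, a ratio of 20.8 (mean ± SD, n = 3). The size of the rise differed widely between them, from 1.63 to 11.22 on the log2 scale in total RNA.

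Niben101Scf04847g03018.1 took the most reads of the family over the 12 libraries. It stood at 1423, 1415 and 1474 CPM in heat total RNA, against 7.99, 7.57 and 10.1 CPM in mock total RNA. In polysome RNA it stood at 2030.2, 1906 and 1819 CPM after heat, against 23.7, 15.8 and 18.7 CPM in mock leaves. No heat library overlapped a mock library, and the log2 fold change was 7.39 ± 0.22 (adjusted p = 3.5e-13) in total RNA and 6.63 ± 0.21 (adjusted p = 5.8e-13) in polysome RNA. Niben101Scf10796g00009.1 was also read often in heat-treated leaves, with 1628, 1605 and 1640.3 CPM in heat total RNA against 16.6, 18.8 and 15.4 CPM in mock total RNA. Its polysome level was 1712, 1470.1 and 1353 CPM after heat and 22.6, 24.7 and 26.2 CPM in mock leaves, and it rose by 6.58 ± 0.18 in total RNA and by 5.95 ± 0.18 in polysome RNA on the log2 scale.

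A pair of genes had next to no reads in mock leaves. Niben101Scf06684g01005.1 had 680.4, 701 and 697 CPM in heat total RNA, against 0.44, 0.88 and 0.51 CPM in mock total RNA. Its polysome level was 542, 742 and 711 CPM after heat, against 0.67, 0.92 and 0.34 CPM in mock leaves. The log2 fold change was 10.11 ± 0.29 (adjusted p = 2.5e-13) in total RNA and 9.94 ± 0.29 (adjusted p = 3e-13) in polysome RNA. Niben101Scf03114g03011.1 had 4693, 4249 and 4403 counts in heat total RNA, against 2, 1 and 2 counts in mock total RNA. Polysome RNA held 1153, 1483 and 1281 counts of it after heat, against 3, 1 and 1 counts in mock leaves. Only 2 reads above the lowest count stood in each mock group, so the size of the rise is poorly fixed: the ratio of reads per library size was 6499 in total RNA (95% interval 1799 to 53673, counting error only) and 2484 in polysome RNA (687 to 20516). The fitted log2 fold changes, 11.22 ± 0.26 in total RNA and 9.87 ± 0.26 in polysome RNA, depend on the prior count added by the fit.

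Other genes of the set changed less with heat. Niben101Scf15166g03015.1 held the most reads of the set in mock leaves, and stood at 484, 491 and 492 CPM in heat total RNA, against 173, 171 and 130.0 CPM in mock total RNA. It had 454, 416 and 415 CPM in heat polysome RNA, against 149, 154 and 143 CPM in mock polysome RNA. The groups did not overlap, and it rose by 1.63 ± 0.14 in total RNA and 1.53 ± 0.14 in polysome RNA. These were the smallest called rises of the set. Intermediate rises were those of Niben101Scf00414g06008.1, at 3.53 ± 0.18 in total RNA and 3.91 ± 0.18 in polysome RNA, and Niben101Scf04739g02010.1, at 3.36 ± 0.21 in total RNA and 3.62 ± 0.21 in polysome RNA. Niben101Scf00414g06008.1 had 808, 818 and 819 CPM in heat total RNA and 81.8, 71.4 and 57.7 CPM in mock total RNA, and Niben101Scf04739g02010.1 had 699.5, 709.7 and 713 CPM in heat total RNA and 78.1, 71.2 and 57.9 CPM in mock total RNA. Niben101Scf00693g02022.1 rose by 4.45 ± 0.17 and 4.77 ± 0.18 in these fractions, and Niben101Scf01681g09001.1 by 2.24 ± 0.21 and 2.70 ± 0.24.

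The share of single genes in the counts of the set differed between heat-treated and mock leaves. Niben101Scf15166g03015.1 made up 7.77 ± 0.044% of the counts of the 11 genes in heat total RNA, against 45.9 ± 1.05% in mock total RNA, and 7.02 ± 0.21% in heat polysome RNA, against 50.5 ± 1.30% in mock polysome RNA (mean ± SD, n = 3). Niben101Scf04847g03018.1 and Niben101Scf10796g00009.1 held larger shares after heat: the first had 22.8 ± 0.31% in heat total RNA and 2.56 ± 0.81% in mock total RNA, the second 25.8 ± 0.26% in heat total RNA and 4.98 ± 0.52% in mock total RNA. The share of Niben101Scf06684g01005.1 was 11 ± 0.15% in heat total RNA and 0.179 ± 0.063% in mock total RNA. Genes of 1 text with similar sequence could exchange reads, and such an exchange would move these shares but not the sum.

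**Figure D2:**
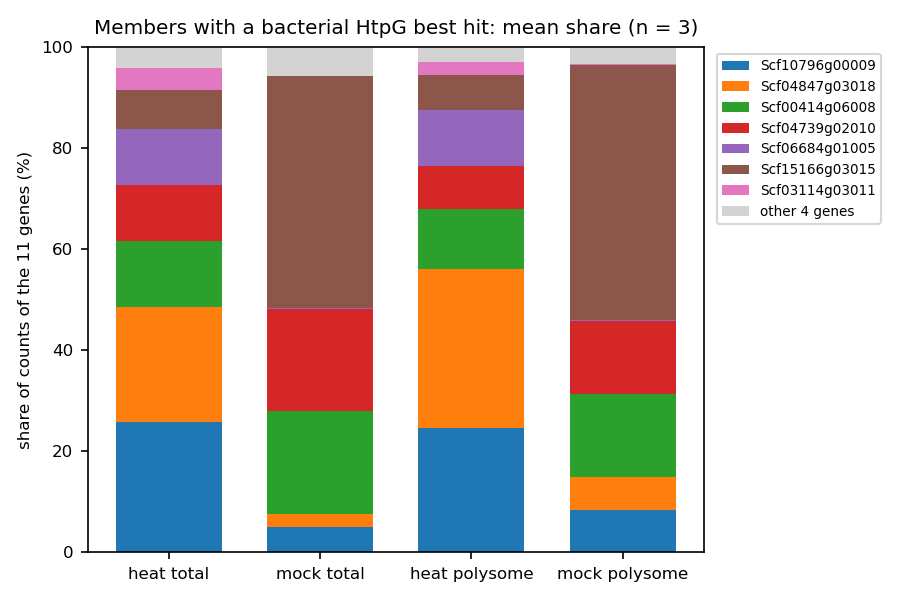
Mean share (y axis, %, n = 3 libraries) of each gene in the summed counts of the 11 HtpG genes with a bacterial best hit, in 4 groups (x axis). Scf15166g03015 takes 7.77% in heat total RNA and 45.9% in mock total RNA, while Scf10796g00009 and Scf04847g03018 take 25.8% and 22.8% in heat total RNA.

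Of this set, Niben101Scf01027g00003.1 did not pass in either fraction and Niben101Scf02024g02023.1 stood apart in polysome RNA. Niben101Scf01027g00003.1 had 1.14, 0.89 and 1.04 CPM in heat total RNA, against 1.65, 2.58 and 1.41 CPM in mock total RNA, and its log2 fold change of -0.88 ± 0.37 missed the threshold (adjusted p = 0.055). Averaged over both fractions, it was 1 of 3 members that fell, against 34.4% of all genes that fell and 31.3% that rose in this mean heat effect, in which 21 members rose, and the count that fell was 1 without mock total libraries 6 and 7 or with the title number as a block. Niben101Scf02024g02023.1, which lacks the Hsp90 family entry and carries the ATPase entry, had 105, 82 and 79 counts in heat total RNA, against 23, 28 and 25 counts in mock total RNA, and rose by 1.76 ± 0.26 (adjusted p = 3.6e-05). Polysome RNA held almost none of it, with 1, 1 and 3 counts after heat and 1, 1 and 1 counts in mock leaves. In heat-treated leaves its polysome level was 0.015 of the total RNA level by reads above the lowest count (95% interval 0.0018 to 0.054, counting error only). In mock leaves it was at least 16.4-fold lower in polysome than in total RNA, counted against 3 reads over the group.

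The plastid HSP90 homologs divided into 4 genes that rose strongly in both fractions and a pair that did not rise in polysome RNA. Their sum was 1267 ± 16.7 CPM in heat total RNA and 91.3 ± 2.74 CPM in mock total RNA, a ratio of 13.9, and 806 ± 204 CPM in heat polysome RNA and 80.5 ± 21.1 CPM in mock polysome RNA, a ratio of 10.01 (mean ± SD, n = 3). Niben101Scf04187g00037.1 took the most reads of them, with 501, 512 and 509.5 CPM in heat total RNA against 31.8, 34.2 and 34.2 CPM in mock total RNA. It had 254, 439 and 454 CPM in heat polysome RNA, against 28.5, 38.6 and 40.7 CPM in mock polysome RNA, heat library 5 being the lowest of its group. Its log2 fold change was 3.93 ± 0.22 (adjusted p = 5.6e-10) in total RNA and 3.41 ± 0.22 (adjusted p = 2.2e-09) in polysome RNA. Niben101Scf02824g03017.1 and Niben101Scf03000g01002.1 rose by 3.804 ± 0.25 and 3.87 ± 0.21 in total RNA and by 3.36 ± 0.24 and 3.54 ± 0.22 in polysome RNA. The largest rise of this set in total RNA was that of Niben101Scf02852g00013.1, with 207, 211 and 213 CPM in heat total RNA and 7.93, 6.28 and 5.32 CPM in mock total RNA (5.01 ± 0.30 on the log2 scale). In polysome RNA that gene had 70.3, 82.6 and 98.7 CPM after heat and 3.43, 10.5 and 7.95 CPM in mock leaves (3.51 ± 0.28).

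Niben101Scf00821g08002.1 rose in total RNA, with 9.27, 9.44 and 9.07 CPM in heat total RNA against 5.14, 3.17 and 3.14 CPM in mock total RNA, by 1.28 ± 0.26 (adjusted p = 0.00056). In polysomes its groups overlapped, with 1.60, 2.22 and 1.99 CPM after heat and 1.14, 2.75 and 2.46 CPM in mock leaves and a log2 fold change of -0.13 ± 0.34 (adjusted p = 0.76). Niben101Scf05549g02005.1 was near 9.86 CPM in mock total RNA and did not pass in either fraction. Its levels were 7.32, 8.62 and 8.46 CPM in heat total RNA and 8.56, 10.5 and 10.5 CPM in mock total RNA, with a log2 fold change of -0.28 ± 0.18 (adjusted p = 0.19), and 2.95, 3.801 and 2.99 CPM in heat polysome RNA and 2.95, 3.97 and 3.02 CPM in mock polysome RNA, with -0.04 ± 0.22 (adjusted p = 0.9). Both genes stayed under 11 CPM in every library.

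All 5 homologs of the Arabidopsis ER chaperone SHEPHERD rose in both fractions. The protein folds secreted and membrane proteins in the ER lumen. Their sum was 1376 ± 56.7 CPM in heat total RNA and 52.1 ± 1.48 CPM in mock total RNA, a ratio of 26.4, the highest of the 5 sets in total RNA, and 1155 ± 74.8 CPM in heat polysome RNA and 73.0 ± 9.01 CPM in mock polysome RNA, a ratio of 15.8 (mean ± SD, n = 3). Niben101Scf06890g01022.1 had 572, 606 and 620.2 CPM in heat total RNA, against 17.1, 14.1 and 16.3 CPM in mock total RNA. Its polysome level was 397, 441 and 434 CPM after heat, against 17.03, 23.1 and 21.4 CPM in mock leaves. The log2 fold change was 5.24 ± 0.17 (adjusted p = 1.2e-12) in total RNA and 4.37 ± 0.17 (adjusted p = 5.2e-12) in polysome RNA. The other 4 genes rose by 3.59 to 4.67 in total RNA and by 2.98 to 3.96 in polysome RNA, and no heat library of any of the 5 genes overlapped a mock library.

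The gene with the endoplasmin homolog text, Niben101Scf00752g01003.1, went the other way at a very low level. It had 3, 3 and 3 counts in heat total RNA, against 15, 9 and 11 counts in mock total RNA, and fell by 1.95 ± 0.47 on the log2 scale (adjusted p = 0.0025). Polysome RNA held 3, 1 and 1 counts after heat, against 6, 15 and 10 counts in mock leaves, and it also fell there (adjusted p = 0.0027). By reads above the lowest count, 2 against 28, the polysome level after heat was 0.091 of that in mock leaves (95% interval 0.01 to 0.36, counting error only). This gene carries no Hsp90 family entry, and its mean was under 1 CPM in each of the 4 groups.

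**Figure D3:**
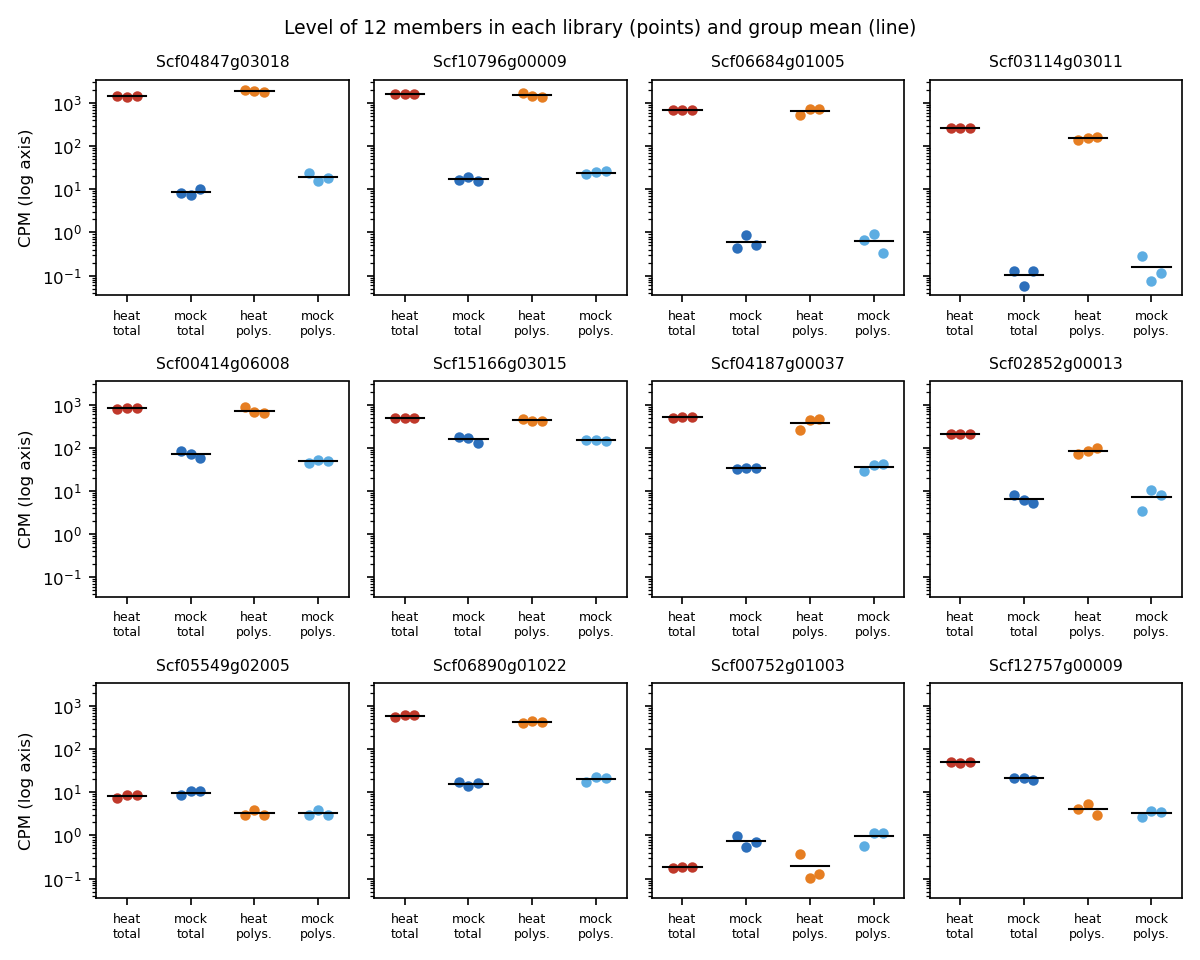
Level of 12 members in each library (points, CPM on a log axis) and the mean of each group (line), in heat and mock total RNA and heat and mock polysome RNA (x axis). Scf04847g03018 lies at 1415 to 1474 CPM in heat total RNA and at 7.57 to 10.1 CPM in mock total RNA, whereas Scf05549g02005 lies within 7.32 to 10.5 CPM in both. The lowest points of Scf03114g03011 and Scf00752g01003 are counts of 1 to 3.

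The MORC-type ATPase genes had much smaller changes. Their sum was 103 ± 4.11 CPM in heat total RNA and 63.6 ± 2.93 CPM in mock total RNA, a ratio of 1.62, and 21.3 ± 2.45 CPM in heat polysome RNA and 28.0 ± 3.34 CPM in mock polysome RNA, a ratio of 0.758 (mean ± SD, n = 3). They supplied 1.14 ± 0.048% of the family's counts in heat total RNA, against 11.6 ± 0.88% in mock total RNA. Of the 8 tested, 3 rose in total RNA and 5 did not pass, beside 25.7% of all genes that rose, and 4 fell in polysome RNA and 4 did not pass, beside 28.0% of all genes that fell. Niben101Scf12757g00009.1 took the most reads, with 51.1, 47.9 and 50.2 CPM in heat total RNA against 21.8, 21.8 and 19.2 CPM in mock total RNA, and rose by 1.25 ± 0.16 (adjusted p = 8.6e-06). Its polysome groups overlapped, with 4.06, 5.38 and 2.99 CPM after heat and 2.66, 3.74 and 3.58 CPM in mock leaves, and the log2 fold change there was 0.32 ± 0.22 (adjusted p = 0.22). Niben101Scf09475g00007.1 rose in total RNA, with 9.15, 9.25 and 8.65 CPM in heat total RNA against 4.88, 5.69 and 5.77 CPM in mock total RNA (0.73 ± 0.19, adjusted p = 0.0036). It fell in polysome RNA, with 1.72, 2.01 and 2.99 CPM after heat against 3.996, 3.67 and 3.69 CPM in mock leaves (-0.76 ± 0.23, adjusted p = 0.011). Of all members it alone was called in opposite directions in total and polysome RNA.

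Niben101Scf04979g02013.1 had the largest fall of this set in polysome RNA, with 1.84, 3.48 and 4.48 CPM after heat against 6.37, 6.80 and 6.49 CPM in mock leaves (-1.001 ± 0.24, adjusted p = 0.0022). In total RNA it had 12.2, 11.3 and 12.8 CPM after heat and 9.20, 9.98 and 8.46 CPM in mock leaves, and the change of 0.39 ± 0.20 did not pass (adjusted p = 0.1). Niben101Scf06132g00005.1 and Niben101Scf00383g01004.1 also fell in polysome RNA, by 0.69 ± 0.24 and 0.83 ± 0.28 on the log2 scale, and did not pass in total RNA, with values of 0.34 ± 0.19 and -0.17 ± 0.21. Niben101Scf08936g05015.1 rose in total RNA by 0.56 ± 0.19 (adjusted p = 0.022) and had 0.10 ± 0.22 in polysome RNA, which did not pass. Niben101Scf05764g05020.1 passed in neither fraction, with -0.21 ± 0.27 in total RNA and -0.51 ± 0.37 in polysome RNA. Niben101Scf08936g05006.1 had 14, 16 and 17 counts in heat total RNA and 6, 3 and 17 counts in mock total RNA, and at most 3 counts in any polysome library. With only the compared polysome libraries in the fit, 1 member fell in polysome RNA instead of 5.

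The share of each transcript that stood with polysomes was compared within a treatment, as the log2 ratio of polysome over total RNA. Such a ratio is relative to the other genes of the library, since the scaling sets the typical gene near 0. In heat-treated leaves 1 member was higher in polysome RNA and 20 were lower, against 30.8% of all genes that were higher and 28.4% that were lower, and the median was -0.82, against 0.07 over all genes. In mock leaves 5 were higher and 14 lower, against 27.0% and 27.2% of all genes, with a median of -0.35, against 0.00 over all genes. The MORC-type genes were lower in polysomes in 8 of 8 tests after heat and in 6 of 8 in mock leaves. Niben101Scf12757g00009.1, for instance, had 4.06, 5.38 and 2.99 CPM in heat polysome RNA against 51.1, 47.9 and 50.2 CPM in heat total RNA, a log2 ratio of -3.57 ± 0.19 (adjusted p = 8.9e-09), and -2.64 ± 0.19 in mock leaves. For Niben101Scf08936g05006.1 the counts allowed only a bound in mock leaves, at least 5.15-fold lower in polysome RNA.

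Plastid homologs were also lower in polysome RNA, 5 of 6 after heat and 3 of 6 in mock leaves, led after heat by Niben101Scf00821g08002.1 at -2.25 ± 0.30 and Niben101Scf02852g00013.1 at -1.33 ± 0.25. The ER homologs differed between treatments: 3 of 5 were lower in polysome RNA after heat, and 3 of 5 were higher in mock leaves. Among the latter, Niben101Scf06890g01022.1 lay at the threshold (0.37 ± 0.15, adjusted p = 0.05). Niben101Scf04331g09018.1 had a log2 ratio of 0.11 ± 0.14 after heat, which did not pass, and of 0.88 ± 0.15 (adjusted p = 0.00014) in mock leaves. Of the 11 genes with a bacterial best hit, whose summed ratio was -0.045 ± 0.15 after heat and -0.22 ± 0.15 in mock leaves, Niben101Scf04847g03018.1 was higher in polysome RNA in both treatments, with 0.42 ± 0.16 (adjusted p = 0.037) after heat and 1.18 ± 0.18 (adjusted p = 4.6e-05) in mock leaves. Its call after heat was lost without a filter on low counts, with a filter at a mean of 5 CPM, and when any heat library or mock total library 5 or 6 was left out. Niben101Scf10796g00009.1 had -0.10 ± 0.14 after heat, not past the threshold, and 0.53 ± 0.15 in mock leaves. The other members of that set with enough counts were near 0 or lower in polysome RNA.

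**Figure D4:**
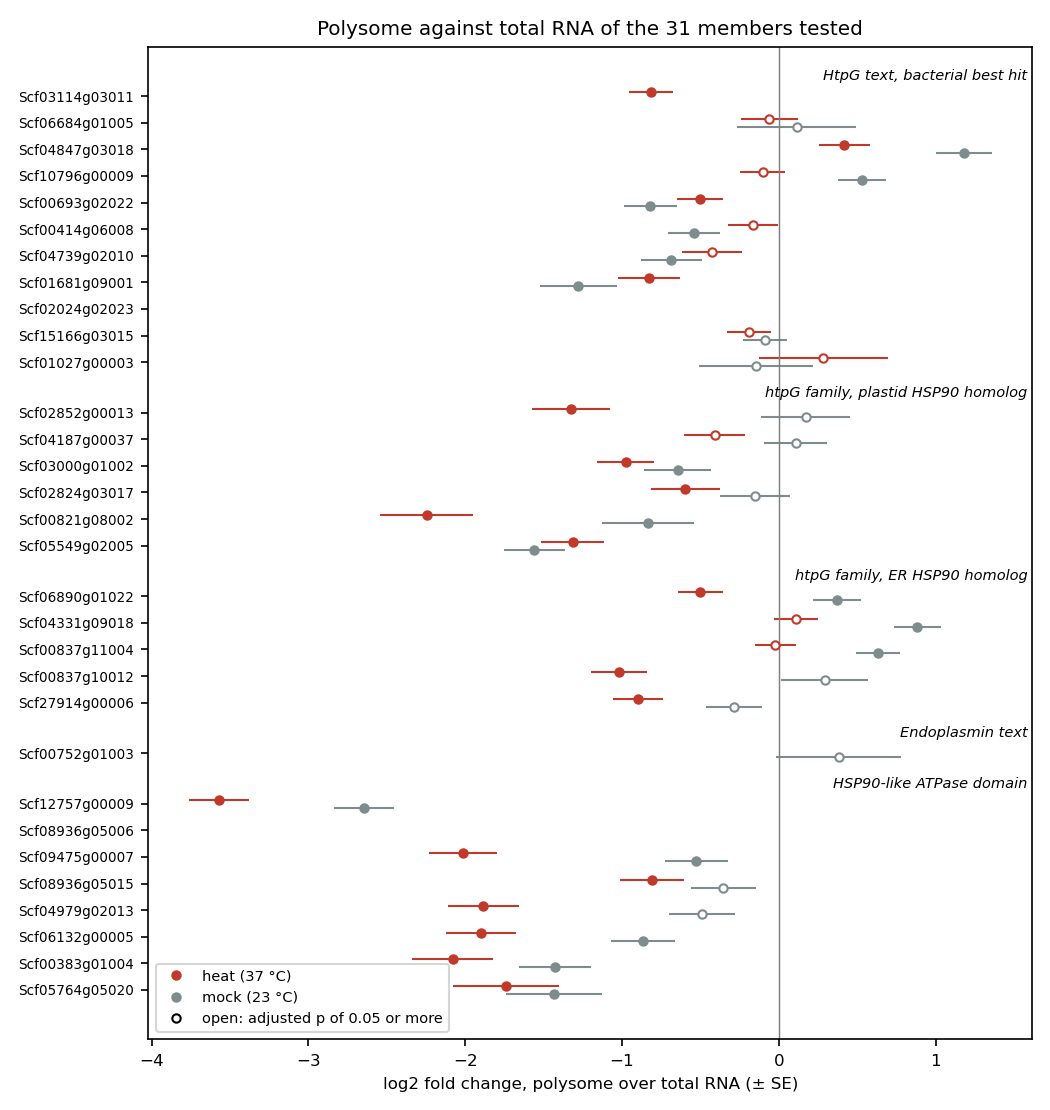
Log2 fold change of polysome over total RNA (± SE, x axis) after heat and in mock leaves for the tested members, grouped by annotation set (y axis), with open points for an adjusted p of 0.05 or more. Values are left out where polysome RNA had at most 3 reads above the lowest count. The heat point lies left of the mock point for most ER and MORC-type genes, and Scf12757g00009 reaches -3.57 after heat and -2.64 in mock leaves.

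Whether polysome RNA followed the rise of total RNA was tested as an interaction, the log2 heat change in polysome RNA minus that in total RNA, which is called translation efficiency here. Heat total and mock polysome libraries have title numbers 2 to 4, heat polysome and mock total libraries 5 to 7. The interaction is therefore also the contrast of numbers 5 to 7 with 2 to 4. The labels do not say what the numbers mark, and these readings cannot be told apart. Translation efficiency was lower for 12 of the 31 members and higher for 0, while 8.42% of all genes were lower and 10.2% higher. No member was higher at an unadjusted p of 0.05 in edgeR or at an adjusted p of 0.05 in DESeq2. In DESeq2 13 members were lower, beside 3400 of 34325 genes. The sign in edgeR was negative for 24 of 31 members, beside 15926 of 34325 genes. The median was -0.61, against 0.07 over all genes. The 12 members were 4 of 5 ER homologs, 4 of 8 MORC-type genes, 2 of 6 plastid homologs and 2 of 11 genes with a bacterial best hit. For the chaperone genes among them the polysome level still rose strongly, except in Niben101Scf00821g08002.1, but by less than the total RNA level.

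The smallest adjusted p was that of the MORC-type gene Niben101Scf09475g00007.1, at -1.49 ± 0.30 (adjusted p = 0.0036), followed by Niben101Scf04979g02013.1 at -1.39 ± 0.31 (adjusted p = 0.0069). The ER homolog Niben101Scf06890g01022.1 had -0.87 ± 0.21 (adjusted p = 0.01), the difference between 4.37 in polysome RNA and 5.24 in total RNA. Its relatives Niben101Scf00837g10012.1, Niben101Scf04331g09018.1 and Niben101Scf00837g11004.1 had -1.31 ± 0.33, -0.77 ± 0.20 and -0.65 ± 0.19, and Niben101Scf27914g00006.1 had -0.61 ± 0.24 and did not pass (adjusted p = 0.087). Among plastid homologs Niben101Scf02852g00013.1 had -1.50 ± 0.38 (adjusted p = 0.013) and Niben101Scf00821g08002.1 -1.41 ± 0.42 (adjusted p = 0.03), and the 3 others that rose in both fractions had -0.33 to -0.52 and did not pass. Niben101Scf04847g03018.1 and Niben101Scf10796g00009.1, with the most reads of the family, had -0.77 ± 0.24 (adjusted p = 0.036) and -0.63 ± 0.21 (adjusted p = 0.045). Summed over the 11 HtpG genes with a bacterial best hit, the efficiency was 0.18 ± 0.22, opposite in sign to both. Summed over the 6 plastid homologs it was -0.47 ± 0.29 and the call of the single genes was lost, and over the 5 ER homologs it was -0.74 ± 0.20. With members of 1 text summed in this way, a gene takes the value of its text, and 8 of the 12 members took a called value. These came from the ER sum and from MORC-type text sums of -1.34 ± 0.19 and -0.85 ± 0.25. The remaining MORC-type text sum was -0.51 ± 0.34. Such sums are not separate tests of the single genes. The remaining genes with a bacterial best hit did not pass, with -0.17 ± 0.42 for Niben101Scf06684g01005.1 and 0.38 ± 0.23 for Niben101Scf00414g06008.1. The count of members with lower efficiency depended on the libraries used, with 7, 7 and 6 when heat total library 2, 3 or 4 was left out. Fewer members were called without mock total libraries 6 and 7, where the median was -0.67 and 24 of 32 values were negative. That fit leaves 1 library in mock total RNA and called fewer of all genes as well. Called in each of the 12 fits with a library left out were Niben101Scf09475g00007.1, Niben101Scf04979g02013.1, Niben101Scf06890g01022.1, Niben101Scf02852g00013.1, Niben101Scf00837g10012.1 and Niben101Scf04331g09018.1.

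HSP90 works with co-chaperones, and 16 genes of the table had such a text, of which 14 were tested. In total RNA 10 of them rose and 3 fell, with a median log2 fold change of 2.49, beside 25.7% of all genes that rose and 28.3% that fell. In polysome RNA 8 rose and 1 fell, with a median of 0.95, beside 28.1% of all genes that rose and 28.0% that fell. Activators of the HSP90 ATPase, which bind the middle domain and speed up the ATP cycle, rose in 4 of 5 cases in both fractions. Niben101Scf02793g13014.1 took the most reads of the list, with 898, 877 and 883 CPM in heat total RNA against 9.13, 10.1 and 10.5 CPM in mock total RNA, and rose by 6.48 ± 0.22 in total RNA and 5.83 ± 0.22 in polysome RNA. Niben101Scf07121g05002.1 rose by 6.62 ± 0.19 (adjusted p = 2.9e-13) in total RNA and 6.60 ± 0.19 (adjusted p = 2.8e-13) in polysome RNA, with 690.1, 684 and 699 CPM in heat total RNA against 5.96, 7.57 and 7.49 CPM in mock total RNA. Genes of SGT1, the co-chaperone tied to immune receptors, rose in 4 of 4 tests in total RNA and in 3 of 4 in polysome RNA, with 3.65 ± 0.16 and 2.73 ± 0.16 for Niben101Scf06671g03021.1. The SGT1 gene Niben101Scf00279g11013.1 is uncertain, with 29, 22 and 17 counts in heat total RNA against 3, 2 and 1 counts in mock total RNA and at most 5 counts in any polysome library. Genes with a cysteine and histidine-rich (CHORD) domain text, the domain of RAR1, rose in 2 of 2 tests in total RNA by 0.94 ± 0.17 and 0.82 ± 0.21, and in 1 of 2 in polysome RNA.

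The stress-induced phosphoprotein type, which links HSP70 to HSP90, had 1 tested gene, Niben101Scf04331g04008.1. It fell in total RNA by 1.02 ± 0.33 on the log2 scale (adjusted p = 0.015) with few reads. Its levels were 1.89, 0.89 and 2.13 CPM after heat against 2.79, 3.23 and 3.97 CPM in mock leaves. The other gene of this text, Niben101Scf01051g07008.1, had too few counts to be tested and went the other way. It had 1.03, 0.57 and 0.85 CPM in heat total RNA, against 0.063, 0.059 and 0.064 CPM in mock total RNA. Polysome RNA held 0.86, 0.53 and 1.12 CPM of it after heat, against 0.095, 0.076 and 0.112 CPM in mock leaves. Both peptidyl-prolyl isomerase genes of the list fell in total RNA, and Niben101Scf11105g00011.1 fell by 1.02 ± 0.40 in total RNA and 1.59 ± 0.45 in polysome RNA, with 0.86, 0.82 and 1.46 CPM in heat total RNA against 1.97, 2.52 and 1.92 CPM in mock total RNA. These 3 falls lay close to the threshold: 1 was called with RLE size factors, with DESeq2, without the filter on low counts or with 1 subtracted from each count, and 0 without heat total library 3. Translation efficiency was lower for 4 of the 14 genes in edgeR, beside 8.42% of all genes that were lower and 10.2% that were higher. Among the 4 was the uncertain SGT1 gene Niben101Scf00279g11013.1, with few counts in polysome RNA. Efficiency was lower for 7 genes of the list at an unadjusted p of 0.05 and for 5 in DESeq2. It was higher for 0 genes by each of these 3 counts. Fewer genes of the list were lower without mock total libraries 6 and 7. That fit leaves 1 library in mock total RNA and called fewer of all genes as well.

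**Figure D5:**
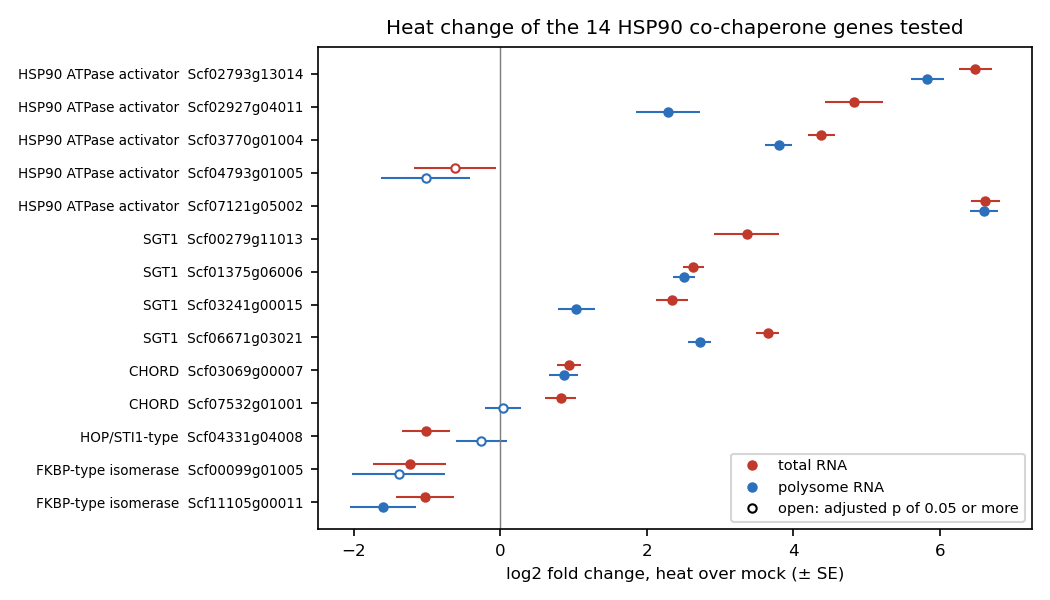
Log2 fold change of heat over mock (± SE, x axis) in both RNA fractions for the 14 tested co-chaperone genes (y axis), with open points for an adjusted p of 0.05 or more. ATPase activators reach 6.62 and SGT1 genes 3.65 in total RNA, and the isomerase and phosphoprotein genes lie below 0. The polysome value of Scf00279g11013 is left out, since it had at most 5 counts in a polysome library.

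Heat stress transcription factors, the regulators that cytosolic HSP90 restrains, had 43 genes by text, and 20 of 37 tested rose and 5 fell in total RNA, beside 25.7% of all genes that rose and 28.3% that fell, while 22 rose and 3 fell in polysome RNA, beside 28.1% and 28.0%. The text of factor A2 belonged to Niben101Scf01777g02001.1, with 374, 368 and 374 CPM in heat total RNA against 6.03, 5.52 and 5.89 CPM in mock total RNA, which rose by 5.998 ± 0.23 in total RNA and 6.11 ± 0.24 in polysome RNA. Niben101Scf03923g03003.1, a class A factor, rose by 6.37 ± 0.19 and 6.69 ± 0.19, and Niben101Scf08191g00001.1, a class B factor, fell by 2.61 ± 0.38 and 1.90 ± 0.31. Translation efficiency was higher for 3 of the 37 factors and lower for 0, beside 10.2% of all genes that were higher and 8.42% that were lower. The median over the factors was 0.32, against 0.07 over all genes. Of the folding partners of endoplasmin in the ER (binding proteins, calnexin, calreticulin and disulfide isomerases), 24 of 35 tested genes rose and 1 fell in total RNA, and 21 rose and 1 fell in polysome RNA, beside the same shares of all genes. The calreticulin-3 gene Niben101Scf04375g04006.1 had 398, 407 and 401 CPM in heat total RNA against 27.9, 26.01 and 23.96 CPM in mock total RNA, and rose by 3.95 ± 0.18 in total RNA and 4.77 ± 0.19 in polysome RNA. Its translation efficiency was higher (0.82 ± 0.23, adjusted p = 0.023). Of the 35 partner genes 1 was higher and 7 were lower in efficiency, beside 10.2% of all genes that were higher and 8.42% that were lower. The calnexin gene Niben101Scf01596g12004.1 rose by 4.55 ± 0.16 in total RNA and 4.43 ± 0.16 in polysome RNA, and the disulfide isomerase gene Niben101Scf01027g01017.1 fell by 1.22 ± 0.34 and 1.54 ± 0.39.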

How the data were processed

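RNA of 12 leaf libraries was sequenced, 3 in each of 4 groups given by the sample titles. The submitters' processing notes list HTSeq 0.11.0, HISAT2, DESeq and cutadapt, with no roles. No source used here gives the genome build or strand setting, and no sequence or coordinate was used. The authors deposited whole-number counts per gene, per the file headers, which look as if 1 had been added to each. They also deposited normalized signal values, counts divided by 1 size factor per library, and log2 ratios of group means. In the authors' deposited table these log2 ratios exceeded the fitted ones of the 31 tested genes by a median of 0.14 for heat in total RNA and 0.04 in polysome RNA. Of its lines, 2 were empty and are not analysed here.

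Tests used edgeR 4.0.16 (R 4.3.3) on the deposited counts, with filterByExpr at a minimum count of 10, TMM scaling, and a quasi-likelihood fit of 1 mean per group to the 12 libraries together. Adjustment was by Benjamini-Hochberg over 34325 genes, with a threshold of 0.05, and SE is the absolute log2 value over the root of F. The script was checked on simulated data. Other settings tried are given with their effects in the closing section, among them DESeq2 1.42.0. Between libraries of the same title number, deviations from the group mean correlated at -0.084 to 0.048 (6 correlations). Numbers were not taken as pairs. A difference between sets of numbers is removed with the group means, so these correlations cannot show it. Libraries of 1 group differed beyond sampling noise, by a chi-square of 1.67 to 27.7 per degree of freedom. It was 1.67 to 1.97 in heat total RNA, 2.29 to 9.63 in heat polysome RNA, 8.51 to 17.6 in mock total RNA and 14.7 to 27.7 in mock polysome RNA. The fit took 1 spread per gene for the 4 groups, although the groups were unequal in this way.

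The members and gene lists were chosen with earlier results of these data known. Named are, in each text group, the gene with most reads and the largest changes with heat, then the smallest adjusted p-values in the polysome comparisons and translation efficiency, every member that fell, and those not past the threshold in total RNA with a mean of at least 1 CPM. Other genes are named to complete a set and were chosen after their values were seen. From the co-chaperone list 10 genes that matched its words by chance were removed after their texts were read, and 4 heat stress factor binding proteins were set apart.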

Additional observations from a re-analysis of the deposited data

Results flagged for a closer look

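Of the 31 tested members, 12 had a heat effect that differed between polysome RNA and total RNA by the interaction test (edgeR, adjusted p under 0.05). This test is also the contrast of title numbers 5 to 7 with 2 to 4, and these cannot be told apart. The difference, the log2 heat change in polysome RNA minus that in total RNA, was negative for each. Among MORC-type genes it was -1.49 for Niben101Scf09475g00007.1, -1.39 for Niben101Scf04979g02013.1, -1.03 for Niben101Scf06132g00005.1 and -0.93 for Niben101Scf12757g00009.1. Among the ER homologs it was -1.31 for Niben101Scf00837g10012.1, -0.87 for Niben101Scf06890g01022.1, -0.77 for Niben101Scf04331g09018.1 and -0.65 for Niben101Scf00837g11004.1. The plastid homologs Niben101Scf02852g00013.1 and Niben101Scf00821g08002.1 had -1.50 and -1.41, and the genes with a bacterial best hit Niben101Scf04847g03018.1 and Niben101Scf10796g00009.1 had -0.77 and -0.63.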

How the results depend on the processing

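Counts of members that rose with heat stayed within 22 to 24 in total RNA and at 18 in polysome RNA when each library was left out. Members that fell were 1 to 2 in total RNA and 3 to 5 in polysome RNA, where the compared libraries alone gave 1 and summing genes of 1 text gave 3. Lower efficiency was called for 6 to 13 members with a library left out. Without mock total libraries 6 and 7 it was called for fewer members and for fewer of all genes. That fit leaves mock total RNA with 1 library assumed to vary like the other groups. Of the 12 members, 12 were also called with RLE size factors, with DESeq2, with 1 subtracted from each count, without the filter and at a mean of at least 5 CPM. With genes of 1 text summed, 8 took a called value from their text, which is no separate test of each gene. Higher in polysome RNA after heat were 0 to 1 members with a library left out, and 0 without the filter, at a mean of at least 5 CPM or with texts summed. Lower after heat were 19 to 22. In mock leaves 4 to 6 were higher and 12 to 15 lower with a library left out, 3 were higher without libraries 6 and 7, and 9 were lower with texts summed. For the mean heat effect, 20 to 22 members rose and 1 to 3 fell with a library left out, and 1 fell without libraries 6 and 7. With the title number as a replicate block 1 member fell instead of 3. The heat comparisons within a fraction and the polysome comparisons share no title numbers, so no other paired fit was possible. These comparisons and efficiency each set numbers 2 to 4 against 5 to 7. Within each of them, a difference between these number sets cannot be told apart from the result. The heat libraries have numbers 2 to 4 in total RNA and 5 to 7 in polysome RNA. The mean heat effect thus has both sets on each side, and 21 members rose in it. Of the 6 heat libraries, 3 correlated best with the mock library of their own number. These were the heat total libraries, at 0.028, 0.048 and 0.01. Co-chaperones that fell in total RNA numbered 1 with RLE size factors, DESeq2, no filter or counts less 1, 0 at a mean of at least 5 CPM or without libraries 6 and 7, and 0 to 3 with a library left out; 10 to 11 rose. In polysome RNA 0 fell at a mean of at least 5 CPM, and 1 to 2 fell and 8 to 9 rose with a library left out. Their lower efficiency calls were 2 at a mean of at least 5 CPM and 4 to 5 with a library left out, and were fewer without libraries 6 and 7. Summing the counts of members with 1 text, so that a gene takes the value of its text, turned the sign of 31 of 186 member values over the 6 comparisons, 6 of them called for the single gene. Among the pairs of gene and comparison that the rule named, it moved heat in total RNA to 4.199 for Niben101Scf01027g00003.1 and 3.796 for Niben101Scf05549g02005.1, polysome over total RNA to -0.045 after heat and -0.22 in mock leaves for Niben101Scf04847g03018.1, and heat in polysome RNA to -0.33 for Niben101Scf12757g00009.1. It also moved efficiency to 0.18 for Niben101Scf04847g03018.1 and Niben101Scf10796g00009.1, and polysome over total RNA in mock leaves to -0.22 for the second gene. On plain total counts the family sum was 11239 CPM in heat total RNA, 784 CPM in mock total RNA, 5156 CPM in heat polysome RNA and 422 CPM in mock polysome RNA. With a library left out it was 8978 to 9109 CPM in heat total RNA, 533 to 580.5 CPM in mock total RNA, 8026 to 8203 CPM in heat polysome RNA and 458 to 493 CPM in mock polysome RNA. A mean of at least 5 CPM moved the heat changes of the 18997 genes it kept by a median of -0.16 in total RNA and -0.18 in polysome RNA. RLE size factors moved those of 34325 genes by 0.07 and 0.02. Of 557 values of named genes recomputed, 516 kept their direction and side of the threshold, 26 lost the call and 10 gained it. Where no cause is given above, the cause was not tested. Depth limits mainly the genes with a few counts in a group.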
